A study of Mus musculus with 13 samples.

Results

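The genes described here are 5 STAT transcription factor genes (Stat3, Stat4, Stat5a, Stat5b and Stat6) and 4 genes of the feedback inhibitors that STATs induce (Cish, Socs1, Socs2 and Socs3), measured in T cells of mice given a ligand of the aryl hydrocarbon receptor (AhR). They are 9 genes chosen by name among the 22180 genes that have a probe set with a single gene symbol on the array. They are not all genes of these families there, and Stat2 and Socs4 to Socs7 are described further below. Where a gene has several such probe sets, the one brightest on average across the 13 arrays stands for it. Together the 9 genes have 12 such probe sets of 41345 on the array, 2 each for Cish, Socs2 and Socs3 and 1 each for the others.

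Cytokine receptors carry Janus kinases (JAKs), which phosphorylate STAT proteins when a cytokine binds, and the phosphorylated STATs enter the nucleus as dimers and switch on target genes. Among those targets are CIS, the product of Cish, and the SOCS proteins, which block the receptor or the kinase and so close a feedback loop. In CD4+ T cells, IL-2 and IL-7 act mainly through STAT5, IL-12 through STAT4, IL-4 through STAT6, and IL-6, IL-10 and IL-21 mainly through STAT3. STAT activity depends on phosphorylation, so the transcript levels given here are not a measure of activity.

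The study followed CD4+ T cells early in a graft-versus-host response. Splenocytes from C57BL/6 mice, labelled with the division dye CFSE, were injected into B6D2F1 hosts, whose second parental haplotype the donor T cells attack, and donor and host mice were 10 to 12 weeks old. Hosts in the vehicle group (4 arrays) received vehicle on days 0, 1 and 2. Hosts in the TCDD group (4 arrays) received TCDD, a persistent dioxin that binds AhR, once at 15 µg/kg on day 0. Hosts in the Cl-BBQ group (5 arrays) received Cl-BBQ, another AhR ligand, at 10 mg/kg on each of days 0, 1 and 2. All doses were intraperitoneal. On day 3 (72 hr) the CD4+ cells of spleen and lymph node that had divided at least 2 times were purified on beads and by sorting, and RNA of each biological replicate was hybridised to an array of its own. The compounds therefore differed in dose, unit and number of injections. By the labels, the TCDD group also had fewer injections than the vehicle group. In every group the cells were selected for division.

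Values are log2 signals after robust multi-array averaging (RMA), so a difference of 1 is a doubling of signal. Signals of different probe sets are not comparable, and only differences between groups for the same probe set are interpreted. The array medians lay between 4.27 and 4.33, no arrays were identical, and replicate Cl-BBQ 1 stood apart, with a median correlation of 0.971 with its own group against 0.980 to 0.986 for the other 12 arrays. The CD4+ T cell markers with a probe set (7 of 8 listed, among them Cd4 and Cd3e) had mean signals of 10.98 to 11.24 per array with vehicle, 11.28 to 11.33 with TCDD and 11.28 to 11.35 with Cl-BBQ, with the lowest value in vehicle 3. Of these 7, 1 was called higher with TCDD and 1 with Cl-BBQ. The 4 regulatory T cell markers (Foxp3, Il2ra, Ikzf2 and Ctla4) had array means of 7.84 to 8.24, 8.09 to 8.44 and 8.20 to 8.40 in the same order. TCDD raised 2 of these 4 and lowered none, and Cl-BBQ raised 2 and lowered 1, where 6.71% and 11.3% of all genes were called. Of the B cell markers, 5 of 6 had a probe set, and their array means were 4.42 to 4.70, 3.98 to 4.29 and 4.11 to 4.36 in the same order. Ms4a1, which defines B cells, lay below the expression floor of 4.31 (the median of all values), and Cd79a had a group mean of 4.55, 4.56 and 4.35. Of the 4 B cell markers tested, 1 was called lower in both comparisons, Cd22, with group means of 6.17, 4.03 and 4.10. The macrophage and monocyte markers (6 of 6) had array means of 4.18 to 4.22, 3.95 to 4.29 and 3.93 to 4.27, with Lyz2, Cd14, Adgre1 and Itgam below the floor. Of the 2 tested, 1 was called higher in both comparisons, Cd68, with group means of 6.47, 7.27 and 7.11. All 5 listed AhR target genes were higher in both treated groups, and all 11 tested of 12 listed proliferation genes were lower (adjusted p under 0.05, limma). Whether proliferation or the signal of these other markers had a part in the differences below was not tested. In such bulk samples, fewer cells of a type and less RNA per cell cannot be told apart.

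All 9 genes were above the floor on all 13 arrays. TCDD raised 2 of the 9, Cish and Socs3, and lowered none, by an adjusted p under 0.05 in limma with Benjamini-Hochberg adjustment over 12710 genes, where 6.71% of all genes were called (3.21% higher and 3.5% lower). Cl-BBQ raised 3, namely Cish, Socs3 and Stat4, and lowered none, where 11.3% were called (5.31% higher and 6.03% lower). The median difference of the 9 genes was 0.07 for TCDD and 0.04 for Cl-BBQ, against -8.9e-04 and -0.0064 over all genes tested. Both comparisons use the same 4 vehicle arrays and are not independent of each other.

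**Figure D1:**
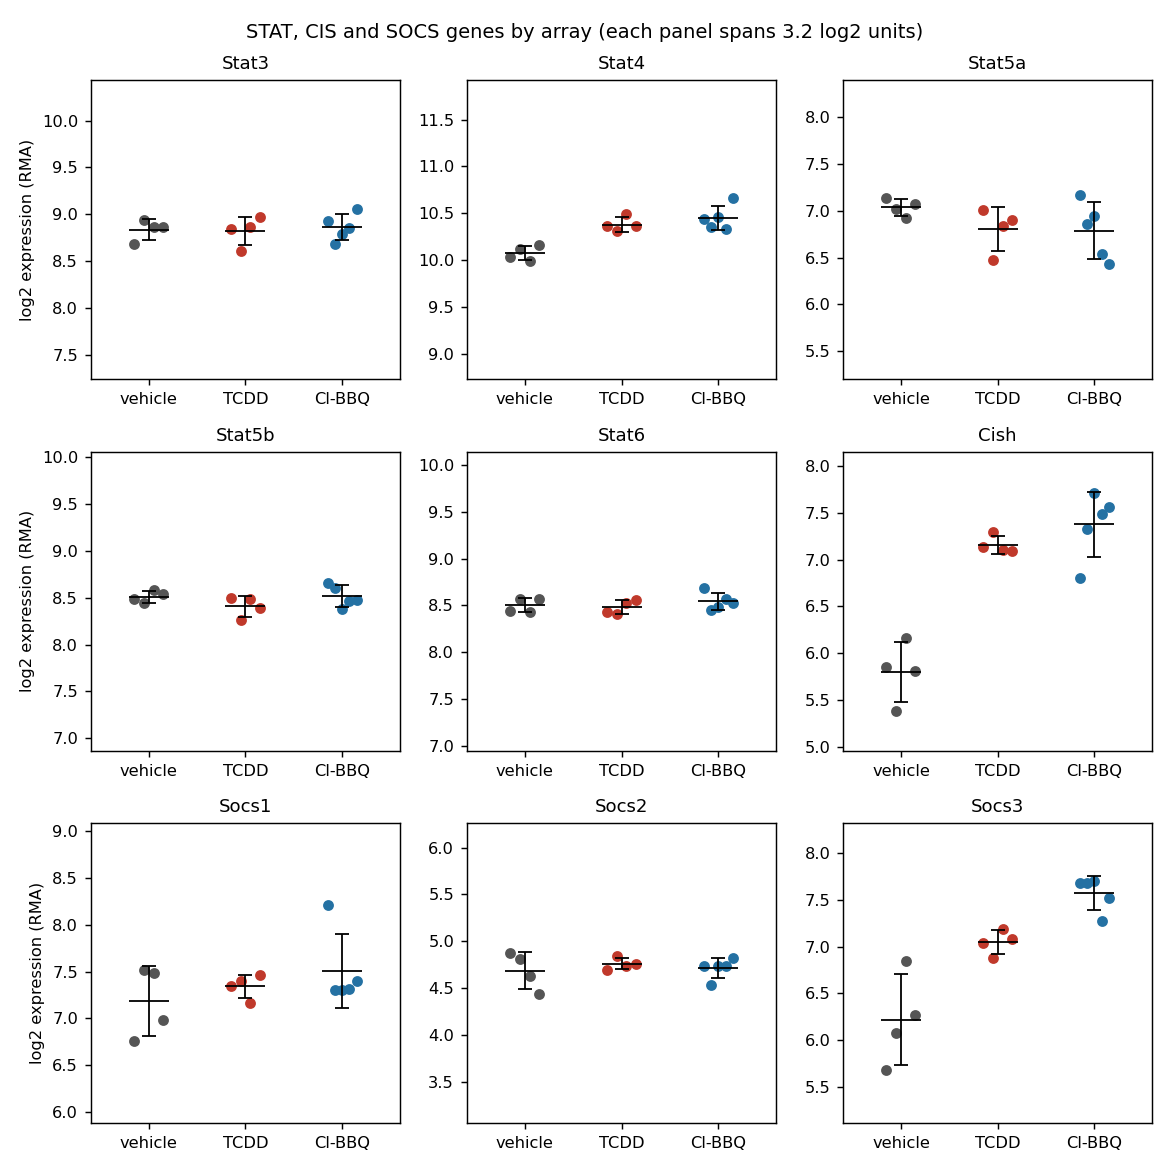
Log2 RMA signal of the 9 genes on each of the 13 arrays, 1 panel per gene, with points for the arrays of the vehicle (4), TCDD (4) and Cl-BBQ (5) groups a horizontal line for each group mean and error bars of 1 SD. For Cish, Socs3 and Stat4 every treated array lies above every vehicle array, and for the other 6 genes the treated and vehicle arrays overlap.

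Cish, whose product CIS is induced by STAT5 and restrains cytokine and antigen receptor signals in T cells, changed most of the 9 genes. Its log2 signal on the vehicle arrays was 5.86, 5.38, 6.16 and 5.82. On the TCDD arrays it was 7.14, 7.30, 7.10 and 7.10, and on the Cl-BBQ arrays 6.81, 7.33, 7.71, 7.49 and 7.56. Every treated array was above the highest vehicle array, and the TCDD arrays lay within a narrow band inside the wider Cl-BBQ range. The group means were 5.80 ± 0.32 (SD, n = 4) with vehicle, 7.16 ± 0.09 (n = 4) with TCDD and 7.38 ± 0.35 (n = 5) with Cl-BBQ. TCDD raised Cish 2.56-fold (95% interval 1.95 to 3.36), a log2 difference of 1.36 ± 0.18 (SE) with an adjusted p of 2.5e-04 in limma. Cl-BBQ raised it 2.98-fold (2.30 to 3.86), a difference of 1.58 ± 0.17 with an adjusted p of 2.0e-05. Without Cl-BBQ 1, which held the lowest of the Cl-BBQ values, the latter difference was 1.72. With single arrays left out, the Cl-BBQ difference ran from 1.44 to 1.72.

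The other Cish probe set gave lower signals, at 4.94, 4.49, 5.20 and 4.83 with vehicle, 5.90, 5.16, 5.92 and 5.30 with TCDD, and 5.72, 5.74, 6.69, 6.00 and 6.59 with Cl-BBQ. Here replicate TCDD 2 lay below the highest vehicle array, while all Cl-BBQ arrays lay above it. In a fit over 22194 probe sets, which was added after the data were seen, this probe set did not pass the test for TCDD (0.70 ± 0.26, adjusted p = 0.24) and passed it for Cl-BBQ (1.28 ± 0.25, adjusted p = 0.0070). The probe set used above passed in both comparisons of that fit, with adjusted p of 0.0016 and 1.7e-04. With TCDD, Cish therefore passed the test on 1 of its 2 probe sets, and both read higher on average.

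Socs3, whose product binds receptors such as that of IL-6 and blocks the attached JAKs, and which STAT3 induces, was the other feedback gene that rose with both compounds. Its signals were 5.68, 6.08, 6.85 and 6.27 with vehicle, 7.03, 6.88, 7.19 and 7.08 with TCDD, and 7.68, 7.68, 7.70, 7.27 and 7.52 with Cl-BBQ. The groups formed 3 steps without overlap, although vehicle 3 came within reach of TCDD 2. The means were 6.22 ± 0.49 (SD, n = 4), 7.05 ± 0.13 (n = 4) and 7.57 ± 0.18 (n = 5). TCDD raised Socs3 1.77-fold (95% interval 1.34 to 2.35; 0.83 ± 0.19, adjusted p = 0.015) and Cl-BBQ 2.55-fold (1.95 to 3.33; 1.35 ± 0.18, adjusted p = 1.2e-04). Vehicle 3 accounted for much of the spread in its group, and without it the TCDD difference was 1.04. With single arrays left out, the TCDD difference ran from 0.65 to 1.04. Its adjusted p reached 0.048 (limma) without vehicle 2, just under the threshold.

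The other Socs3 probe set read 5.41, 5.74, 5.74 and 5.78 with vehicle, 5.95, 5.95, 5.88 and 5.80 with TCDD, and 6.74, 6.13, 6.68, 6.62 and 6.12 with Cl-BBQ. The order of the groups was again without overlap, but the TCDD arrays began only just above the vehicle arrays. Its difference was 0.23 ± 0.15 for TCDD, which did not pass the test (adjusted p = 0.59), and 0.79 ± 0.15 for Cl-BBQ, which passed (adjusted p = 0.0047, limma over 22194 probe sets). As with Cish, only the brighter probe set passed the test for TCDD, and both passed it for Cl-BBQ. With the mean of both probe sets, the TCDD difference of Socs3 was 0.53 (adjusted p = 0.034).

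**Figure D2:**
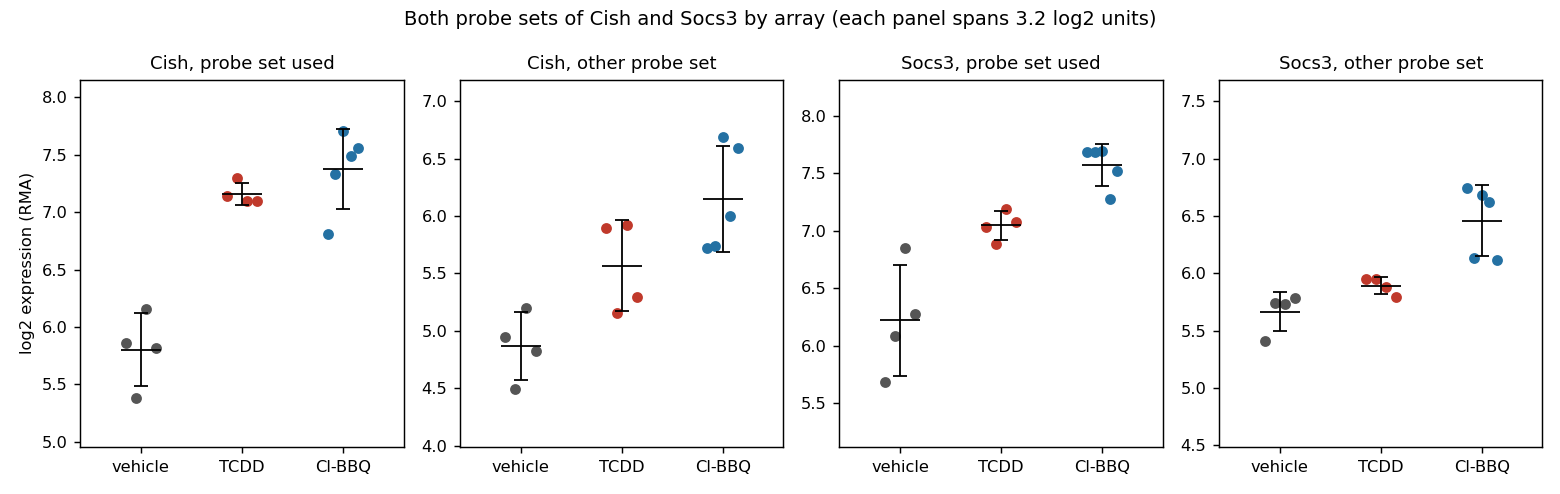
Log2 RMA signal of both probe sets of Cish and of Socs3 on each array, 1 panel per probe set with an axis of its own and the same number of log2 units in each panel. Lines are group means and error bars 1 SD. The Cl-BBQ arrays lie above the vehicle arrays in all 4 panels, while the TCDD arrays overlap the vehicle arrays for the dimmer Cish probe set and start just above them for the dimmer Socs3 probe set.

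The promoters of these genes are shown because STAT dimers bind DNA at the palindrome TTCNNNGAA, and Cish is a textbook example of a gene with several such sites near its start. In RefSeq's mouse assembly GRCm38.p6, 8 of the 9 genes have a promoter window of 250 bases before to 50 after the start of transcription, 11 windows in all, and Socs2 is named only. TTCNNNGAA, which reads the same on both strands, was found in the windows of 2 of the 8 genes, Cish and Socs3. Of all 32841 RefSeq promoter windows of this length, 8.30% hold at least 1 match and 0.457% at least 2. The windows follow 5′ to 3′ in the direction of transcription, with the matches in capitals, Cish at chr9:107296409-107296708 on the plus strand and Socs3 at chr11:117969317-117969616 on the minus strand.
Cish: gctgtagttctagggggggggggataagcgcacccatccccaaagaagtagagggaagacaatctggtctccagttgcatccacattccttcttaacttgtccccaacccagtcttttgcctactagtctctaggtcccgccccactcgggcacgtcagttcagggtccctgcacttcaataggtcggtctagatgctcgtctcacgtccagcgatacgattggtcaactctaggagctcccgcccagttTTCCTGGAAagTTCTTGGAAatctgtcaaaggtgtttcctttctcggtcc
Socs3: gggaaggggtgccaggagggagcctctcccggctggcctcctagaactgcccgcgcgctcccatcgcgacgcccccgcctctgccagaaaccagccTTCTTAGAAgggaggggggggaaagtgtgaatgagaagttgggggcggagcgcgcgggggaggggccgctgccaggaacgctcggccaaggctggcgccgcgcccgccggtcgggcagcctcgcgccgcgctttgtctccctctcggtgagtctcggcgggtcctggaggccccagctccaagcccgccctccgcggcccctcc
The Cish matches, TTCCTGGAA and TTCTTGGAA, began at positions 1 and 12, counted from 1 at the start of transcription, and the single Socs3 match, TTCTTAGAA, ran from position -154 to -146. The same arms with 4 bases between them, the spacing that STAT6 prefers, occurred in none of the 11 windows and in 6.95% of all promoters. GCGTG, the core to which AhR and its partner ARNT bind, was searched on both strands and occurred in the Stat3 window and in 1 of the Stat5b windows, but in neither window shown, and 32.4% of all promoters hold it. These matches describe the letters only, and binding was not measured here. The annotated Socs3 gene extends upstream of the window shown, to chr11:117970336, and that stretch was not searched.

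Socs1, whose product inhibits JAKs directly and restrains interferon-γ and IL-2 family signals, did not pass the test in either comparison. Its signals were 6.76, 7.52, 7.49 and 6.98 with vehicle, 7.34, 7.39, 7.17 and 7.46 with TCDD, and 8.21, 7.30, 7.30, 7.31 and 7.40 with Cl-BBQ. The vehicle arrays split into a lower and a higher pair that enclosed the TCDD arrays, and replicate Cl-BBQ 1 stood far above the other 4 of its group. The differences were 0.16 ± 0.21 for TCDD (95% interval -0.29 to 0.60, adjusted p = 0.78, limma) and 0.32 ± 0.20 for Cl-BBQ (-0.11 to 0.74, adjusted p = 0.38). Without Cl-BBQ 1 the latter was 0.14. Socs2, best known as a brake on growth hormone signalling, gave signals close to the floor, from 4.44 to 4.87 with vehicle, 4.70 to 4.84 with TCDD and 4.53 to 4.82 with Cl-BBQ. Both treated groups lay within the vehicle range, with differences of 0.07 ± 0.10 and 0.03 ± 0.10. The second Socs2 probe set was above the floor on fewer than 4 arrays and was not tested. Its differences were 0.82 ± 0.42 and 0.82 ± 0.40, with overlapping groups.

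Stat4, the factor through which IL-12 drives type 1 helper differentiation, was the only one of the 5 STAT genes to pass the test in either comparison. Its signals were 10.03, 10.12, 9.99 and 10.16 with vehicle, 10.36, 10.31, 10.49 and 10.36 with TCDD, and 10.43, 10.35, 10.46, 10.34 and 10.66 with Cl-BBQ. Each of the 9 treated arrays exceeded the highest vehicle array, and the compounds overlapped. The means were 10.07 ± 0.08 (SD, n = 4), 10.38 ± 0.08 (n = 4) and 10.45 ± 0.13 (n = 5). Cl-BBQ raised Stat4 1.30-fold (95% interval 1.14 to 1.48; 0.37 ± 0.09, adjusted p = 0.010, limma). For TCDD the ratio was 1.24 (1.08 to 1.42; 0.31 ± 0.09), which missed the threshold with an adjusted p of 0.065. With single arrays left out, it passed in 1 of 13 fits (adjusted p = 0.045 without Cl-BBQ 5) and missed in the other 12 (up to 0.18 without TCDD 3). Groups without overlap, as for Cish, Socs3 and Stat4 with TCDD, were found for 13.6% of all genes in that comparison (6.31% higher and 7.28% lower) and for 12.9% with Cl-BBQ (6.08% higher and 6.8% lower).

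For the other 4 STAT genes no difference passed the test. Stat3 ranged from 8.68 to 8.94 with vehicle, 8.61 to 8.97 with TCDD and 8.68 to 9.06 with Cl-BBQ, and Stat6 from 8.43 to 8.57, 8.41 to 8.56 and 8.45 to 8.68. In fold terms the 95% interval ran from 0.846 to 1.16 (TCDD) and 0.878 to 1.18 (Cl-BBQ) for Stat3, and from 0.869 to 1.12 and 0.913 to 1.16 for Stat6. For both genes the 3 groups covered much the same range. Stat5b, which ranged from 8.44 to 8.58, 8.26 to 8.50 and 8.38 to 8.66, had intervals of 0.814 to 1.07 and 0.885 to 1.14.

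Stat5a showed the widest spread of the 5. It read 7.14, 7.02, 6.92 and 7.07 with vehicle, 7.01, 6.47, 6.83 and 6.91 with TCDD, and 7.17, 6.86, 6.94, 6.54 and 6.43 with Cl-BBQ. The vehicle arrays lay close together, while TCDD 2, Cl-BBQ 4 and Cl-BBQ 5 were low and Cl-BBQ 1 lay just above the highest vehicle array. The remaining treated arrays lay within the vehicle range or just under it. The differences were -0.23 ± 0.16 (95% interval -0.56 to 0.10, adjusted p = 0.50) and -0.25 ± 0.15 (-0.56 to 0.07, adjusted p = 0.36, limma). Without Cl-BBQ 1 the latter was -0.34 (adjusted p = 0.14, limma). Stat5a and Stat5b are close paralogs that lie side by side, next to Stat3, on mouse chromosome 11 in GRCm38.p6, and how well their probes tell them apart was not examined.

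**Figure D3:**
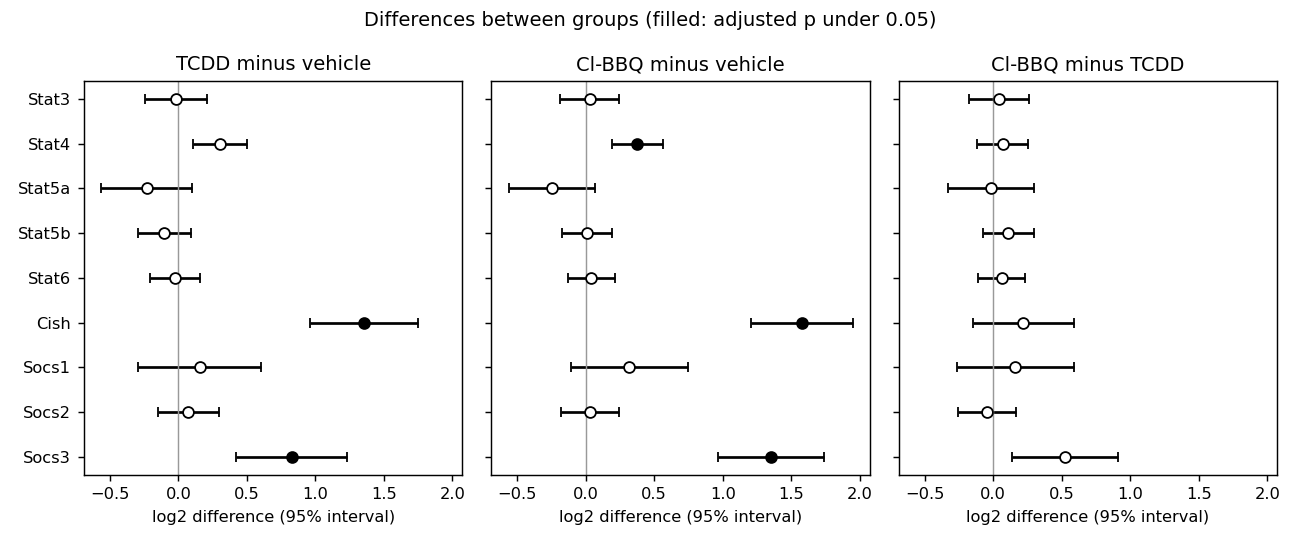
Log2 differences of the 9 genes with 95% intervals from limma, for each compound against vehicle and for Cl-BBQ against TCDD, with filled points for an adjusted p under 0.05. Against vehicle, the whole intervals of Cish, Socs3 and Stat4 lie above 0 for both compounds and those of the other 6 genes cross 0.

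Set directly against each other, the compounds did not separate any of the 9 genes at an adjusted p under 0.05, where 0.0236% of all genes (3 of 12710) were called. At an unadjusted p under 0.05, Socs3 alone passed (adjusted p = 0.61, limma), as did 6.41% of all genes. Socs3 was 1.44-fold (95% interval 1.10 to 1.88) as high with Cl-BBQ as with TCDD, and all 5 Cl-BBQ arrays were above all 4 TCDD arrays, where 2.11% of all genes had groups without overlap (1.03% higher and 1.08% lower). The dimmer Socs3 probe set also kept these groups apart, with a difference of 0.56 ± 0.15 and an adjusted p of 0.80 over all probe sets. For Cish the ratio was 1.17 (0.901 to 1.51) and for Stat4 it was 1.05 (0.922 to 1.19). For Stat5a and Stat5b the intervals were 0.794 to 1.23 and 0.950 to 1.23, and for Socs1 the log2 difference was 0.16 (-0.26 to 0.59), so that modest differences between these doses and schedules could not be told from none.

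Upstream of the STATs, many receptor chains rose. Of 23 listed chains of receptors that signal through JAKs, 18 were tested. TCDD raised 9 and lowered none, with a median difference of 0.42 over the 18, where 3.21% of all genes were called higher and 3.5% lower. Cl-BBQ raised 10 and lowered 2, with a median of 0.61, where 5.31% were called higher and 6.03% lower. Il12rb2, the chain that gives T cells a working IL-12 receptor and recruits STAT4, differed most in both comparisons, rising from a vehicle mean of 5.77 ± 0.33 (SD, n = 4) by 4.47 ± 0.17 with TCDD (adjusted p = 2.6e-09) and by 4.81 ± 0.16 with Cl-BBQ (adjusted p = 4.4e-10, limma). Its partner chain Il12rb1 rose by 0.71 and 0.99. Among receptors that use STAT5, Il7r rose by 1.36 and 2.53 and Il2ra, the high-affinity chain of the IL-2 receptor, by 0.66 and 0.97. Il4ra, which docks STAT6, rose by 0.83 and 1.19. The chains Il21r, Il10ra and Il27ra, which feed STAT3, rose by 0.57, 0.61 and 0.64 with TCDD and by 0.80, 0.79 and 0.83 with Cl-BBQ. Ifngr1, the ligand-binding chain for interferon-γ, rose by 0.88 and 1.11. Its partner chain Ifngr2 differed by -0.50 and -0.35 without passing the test (adjusted p = 0.20 and 0.31, limma). The IL-2 receptor chain Il2rb differed by -0.27 and -0.23, also without passing (adjusted p = 0.17 and 0.18, limma). With Cl-BBQ, Il10rb also rose by 0.43 while Il6ra fell by 0.37 and Ifnar2 by 0.45.

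Some of these calls depended on a single array. The TCDD call of Il2ra was lost when any of 6 arrays was left out, the adjusted p reaching 0.11 without vehicle 4, and that of Il21r with any of 4 (up to 0.066 without vehicle 1). With Cl-BBQ, the call of Il6ra was lost with any of 11 arrays (up to 0.12 without vehicle 2) and that of Il10rb with any of 2 (up to 0.054 without vehicle 1). With no filter on low values, the calls of Il2ra with TCDD (adjusted p = 0.069) and Il6ra with Cl-BBQ (0.087) were lost as well.

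**Figure D4:**
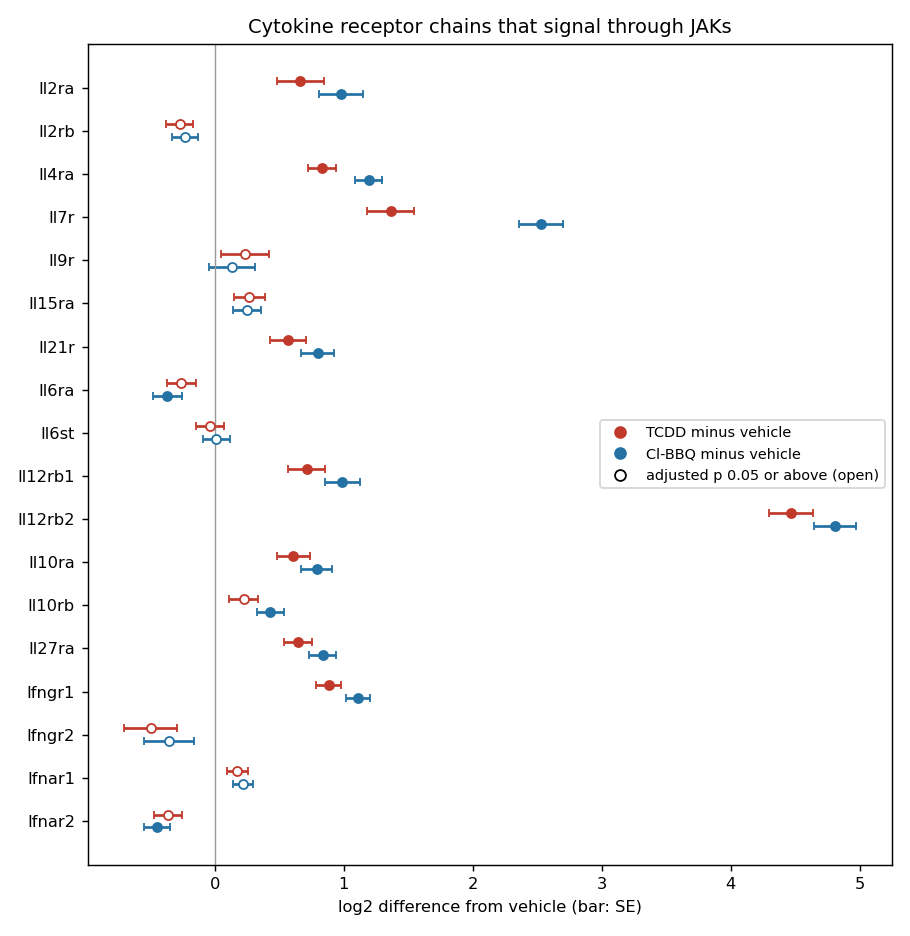
Log2 differences against vehicle for the 18 tested chains of receptors that signal through JAKs, with 1 point for TCDD and 1 for Cl-BBQ per chain. Bars are 1 SE, and filled points have an adjusted p under 0.05. Il12rb2 lies far to the right of the others at 4.47 and 4.81, followed by Il7r at 1.36 and 2.53.

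Between receptor and STAT, none of the 3 JAK genes tested (Jak1, Jak2 and Tyk2) passed the test in either comparison, and only Jak2 did so at an unadjusted p under 0.05, with TCDD (0.25 ± 0.10, adjusted p = 0.16, limma). The differences of Jak1 were 6.1e-04 ± 0.08 and 0.03 ± 0.08. None of the 4 further SOCS genes (Socs4, Socs5, Socs6 and Socs7) passed, none of them at an unadjusted p under 0.05 either, with differences from 0.02 to 0.19 for TCDD and from -0.18 to 0.04 for Cl-BBQ. Stat2, which acts in the response to type I interferon, differed by 0.10 ± 0.19 and 0.18 ± 0.18. Among 13 tested genes listed as other negative regulators of the pathway, both compounds lowered 1, Ptpn11, and raised none. That count is near the 6.71% and 11.3% of all genes called. Ptpn6 read higher by 0.30 and 0.27 without passing the test (adjusted p = 0.071 and 0.067, limma). Ptpn11, which encodes the phosphatase SHP-2, fell by 0.67 ± 0.11 with TCDD (adjusted p = 0.0017) and by 1.03 ± 0.11 with Cl-BBQ (adjusted p = 1.3e-05), with all treated arrays below all vehicle arrays.

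Of the cytokine genes whose receptors signal through JAKs, 11 of 20 were tested. TCDD raised 2 of these, and Cl-BBQ raised 1 and lowered 2, where 6.71% and 11.3% of all genes were called. Il10, which signals through STAT3, rose by 1.72 ± 0.15 with TCDD and 1.80 ± 0.14 with Cl-BBQ (adjusted p = 4.9e-06 and 7.9e-07, limma). TCDD also raised Il21 by 0.39, a call that was lost with any of 7 arrays left out (adjusted p of up to 0.11 without TCDD 2) or with no filter on low values (0.083), and lowered none. Cl-BBQ lowered Il4 by 0.82 and Lif, an IL-6 family cytokine that induces Socs3 in many cells, by 0.77. The Il4 call was lost without vehicle 2 (adjusted p = 0.056).

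Listed target genes of STAT3, STAT4, STAT5 and STAT6 were followed as well. Of 8 tested STAT4 targets, TCDD raised 4 and Cl-BBQ 5, and none fell. Besides Il12rb2 these were both chains of the IL-18 receptor, Il18r1 (1.10 and 1.57) and Il18rap (1.88 and 2.44), the protease gene Furin (1.05 and 1.13) and, with Cl-BBQ, Tbx21 (0.64), which encodes the type 1 helper factor T-bet. Ifng, which encodes interferon-γ, passed in neither comparison (0.36 and 0.61, adjusted p = 0.40 and 0.059, limma). Hlx (0.27 and -0.05) and Irf1 (0.14 and 0.11) did not pass either. Of 8 tested STAT5 targets, in a list that like the others leaves out the 9 genes, TCDD raised 2 and lowered 1, and Cl-BBQ raised 4 and lowered 1. The kinase gene Pim1 rose by 0.70 and 1.26 beside Il2ra, Ccnd3 and Myc rose with Cl-BBQ by 0.44 and 0.73, and Bcl2, a survival gene, fell by 0.84 and 0.61. The Pim1 call with TCDD was lost with any of 6 arrays left out (up to 0.10 without TCDD 1), and with the mean of its probe sets in place of the brightest the differences were 0.43 (adjusted p = 0.23) and 0.78 (adjusted p = 0.0076).

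For STAT3, 2 of 8 tested targets rose with TCDD, Bcl3 (0.69) and Il21, while with Cl-BBQ Bcl3 rose (0.66) and Bcl6, the factor of follicular helper cells, fell by 0.73. For STAT6, Il4ra was the 1 of 6 targets that rose with TCDD, and with Cl-BBQ Il4ra and Gata3 (0.47) rose and Il4 fell. The Gata3 call was lost with any of 7 arrays left out (up to 0.11 without vehicle 3) and with no filter on low values (0.063). These counts stand beside the 6.71% and 11.3% of all genes called, and genes such as Il2ra, Il4ra, Il12rb2 and Il21 stand in more than 1 list.

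The genes whose levels over the 13 arrays were most like the 3 changed members were taken by Pearson correlation, as a description, since all arrays share the treatment difference. For Cish these were Gsn, Klk8 and Plac8 (r = 0.968, 0.967 and 0.966), with r of 0.73, 0.67 and 0.68 after group means were removed. For Socs3 they were Pea15a, Themis2 and Rab8a (r = 0.958, 0.954 and 0.949), and within groups 0.86, 0.77 and 0.77. For Stat4 they were Ddx58, Furin and Atp2b4 (r = 0.931, 0.931 and 0.930), and within groups 0.74, 0.70 and 0.71. None of the 9 genes was among the 3 most like Cish, Socs3 or Stat4.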

How the data were processed

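RNA of 13 samples was labelled with biotin from an oligo-dT primer and hybridised to single-colour arrays, per the labels' protocols. The deposited log2 values were made by the authors with RMA, per the submitters' processing notes. The sources used here do not give the version, probe filters or genome build of the array. Gene names came from the platform annotation, in which 23521 of 41345 probe sets carry 1 symbol, 1814 several and 16010 none. Each of 22180 genes was represented by its probe set with the highest mean, and 12710 genes above 4.31, the median of all values, on at least 4 arrays were tested. A model with a mean per group over all 13 arrays was fitted with limma 3.58.1 in R 4.3.3 (10 residual degrees of freedom), with moderated variances and Benjamini-Hochberg adjustment within each comparison. The fit was tested on simulated data with 50 genes changed at each size. Against vehicle it recovered 4% (TCDD) and 6% (Cl-BBQ) of log2 differences of 0.3. For differences of 0.5 it recovered 34% and 58%, and for differences of 1 it recovered 90% and 96%. The number of arrays limits precision, and p-values measure the spread between samples labelled as biological replicates. Groups came from the labels. The genes named are the 9 members, the list genes that passed the test (or, where none passed, those with the highest signal or all of a short list) and the 3 genes most like each changed member. Some list genes that did not pass are named beside them. The members, lists and motifs were chosen with earlier results of these data known. Alternatives covered probe set choice, filter, scaling, variance model, samples fitted, replicate block and leaving out each array. Promoter windows were taken from RefSeq (GRCm38.p6). Some listed genes are not reported here.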

Additional observations from a re-analysis of the deposited data

Results flagged for a closer look

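Each of the 12 probe sets of the 9 genes was examined in each of the 3 groups for an array far from the rest, and 2 of these 36 sets of values held one, where chance gives about 1 in 20. For Socs1, replicate Cl-BBQ 1 read 8.21, while the other 4 Cl-BBQ arrays lay between 7.30 and 7.40. This array also correlated least with its own group. For the dimmer Socs3 probe set, replicate vehicle 1 read 5.41, while the other 3 vehicle arrays lay between 5.74 and 5.78.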

How the results depend on the processing

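The number of the 9 genes called was 2 or 3 with TCDD, 2 or 3 with Cl-BBQ and 0 between the compounds under 9 other ways of processing and the 13 fits that each left out 1 array. Cish and Socs3 were called against vehicle in all of these. On the dimmer probe set of each, for which no count was made, neither was called with TCDD (0.70 and 0.23, adjusted p = 0.24 and 0.59). The count over all genes between the compounds, 3 in the fit reported, was 5 with the mean of a gene's probe sets, 0 without a filter, 7 with a stricter filter, 6 with quantile normalization repeated, 6 with a trended robust variance, 7 with array weights and 0 with only both groups in the fit, and ran from 0 to 5 when single arrays were left out. Replicate numbers did not pair the samples: same-numbered arrays of different groups had correlations of deviations from -0.06 to 0.08, against -0.06 to 0.08 for other numbers. With the replicate number as a block, which leaves Cl-BBQ 5 without a partner, 714, 1114 and 0 genes were called and Stat4 with Cl-BBQ was 0.32 (adjusted p = 0.068); the TCDD difference of Stat4 was called with the stricter filter (adjusted p = 0.031) and with the trended robust variance (adjusted p = 0.013). Differences near 0 changed sign. With array medians equalised, Stat5b with Cl-BBQ was -0.0055, Stat5a between compounds 0.0034 and Il4 with TCDD -0.0049; with array weights, Stat5b with Cl-BBQ was -8.0e-04 and Il4 with TCDD -0.0088. With the replicate block, Stat3 was -0.023 with Cl-BBQ and -0.0076 between compounds, and Stat5a 0.073 between compounds. When single arrays were left out, the TCDD difference ran from -0.066 to 0.055 for Stat3, -0.048 to 0.0021 for Stat6, -0.011 to 0.13 for Socs2 and -0.14 to 0.20 for Il4. The Cl-BBQ difference ran from -0.024 to 0.072 for Stat3, -0.028 to 0.043 for Stat5b, -0.055 to 0.088 for Socs2 and -0.095 to 0.0011 for Il21. Between compounds it ran from -0.028 to 0.090 for Stat3, -0.13 to 0.073 for Stat5a, -0.015 to 0.21 for Socs1 and -0.072 to 0.0013 for Socs2. The cause of these changes was not tested. Signals near the floor, as for Socs2, limit what a difference can show.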
